A study of Mus musculus with 6 samples.

Results

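The matrix metalloproteases (MMPs), the ADAM and ADAMTS metalloproteases and their inhibitors, the TIMPs, were followed in 2 macrophage populations of injured mouse muscle. The genes were taken by symbol from the probe annotation of the arrays, with the probe set of highest mean where a gene had several. This gave 83 of 19938 genes, namely 22 MMP, 34 ADAM, 18 ADAMTS, 5 ADAMTS-like and 4 TIMP genes. The cells were Ly6C- F4/80high macrophages and Ly6C+ F4/80low macrophages, sorted from the same 3 mice, with 1 array for each subset and mouse. All mice were of the strain B6.129P2-Lyzstm1(cre)Ifo/J, which carries Cre in the lysozyme locus and so in myeloid cells, and the labels name no other allele, no sex and no age. The cells were taken 2 days after the tibialis anterior muscle had been damaged with cardiotoxin, a toxin of snake venom that destroys muscle fibres. CD45-positive cells were then enriched on magnetic beads and sorted by antibodies to these surface proteins. The comparison asks how the F4/80high cells differ from the Ly6C+ cells within the same injured muscle.

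MMPs are zinc-dependent enzymes, secreted or membrane-bound, that cut collagens, elastin, laminins and other matrix proteins, and most are made as inactive precursors. ADAMs are membrane proteins; those with an active protease domain release the outer parts of cytokines, receptors and adhesion molecules, while others of the family act in sperm or have no active site. ADAMTS enzymes are secreted and cut proteoglycans such as versican and aggrecan or process procollagens, and the ADAMTS-like proteins have the ancillary domains without the protease. TIMPs bind the active site of these enzymes and also have roles of their own, and TIMP-2 holds the precursor of MMP-2 in place for activation by MMP-14. In regenerating muscle, proteases of this kind open the basement membrane for incoming leukocytes and muscle precursors.

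Expression is given as the authors' RMA values on the log2 scale, so a difference of 1 is a 2-fold change, and every difference is given as Ly6C- F4/80high minus Ly6C+ F4/80low. A gene was called at a limma adjusted p under 0.05 (Benjamini-Hochberg over all 19938 genes, 3 arrays per subset), and all adjusted p-values are from that fit. A background level of 5.44 was taken from the 95th percentile of 1190 olfactory and vomeronasal receptor genes. If none of a subset's 3 arrays exceeded that level, only a bound on the fold is given, and no size is given where both subset means lay under it. The bound, written as "at least", sets the other subset's mean against the background level. It takes no account of the spread between arrays and is no guaranteed minimum. Levels were compared for the same gene only, since probe sets of different genes differ in brightness. Over all probe sets the correlation was 0.990 to 0.993 between arrays within a subset, and 0.979 to 0.982 between arrays of different subsets. All 8 macrophage markers listed, among them Adgre1, Cd68 and Csf1r, lay above the background on every array of both subsets. Between the subsets 3 of them were called higher, 3 were called lower and 2 were not called, while 19.5% of all genes were called higher and 14.3% lower. The subsets are mixtures of cells, so fewer cells with a transcript and less of it per cell cannot be told apart.

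Of the 83 genes, 10 were called higher in the Ly6C- F4/80high cells, 18 were called lower and 55 were not called. These are 12.05% and 21.7% of the members, beside 19.5% higher and 14.3% lower among all genes. The members' median difference was -0.10, beside -0.06 over all genes. For 35 members, and for 48.1% of all genes, every array of a subset lay above every array of the other. The larger differences were few. Mmp27, Timp2, Mmp14 and Mmp12 were called at 2-fold or more toward the Ly6C- F4/80high cells (1.91% of all genes were) and Timp1 toward the Ly6C+ F4/80low cells (1.02% of all genes were).

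The number of lower members depended on genes near the background. Of the 18 lower members 7 had both subset means under it, and 36 of the 83 members lay under it on all 6 arrays. Dim genes as a whole stood slightly lower in the Ly6C- F4/80high cells. Among the 7661 genes with an overall mean under the background the median difference was -0.12, with 290 called higher and 935 lower. The 46 members in that range had a median difference of -0.14, with 1 called higher and 11 lower. Among the 15 members with a mean over 7, 7 were higher and 3 lower, with a median of 0.28. Of all 6782 genes in that range 36.5% were higher and 15.8% lower, with a median of 0.12. Leaving out 1 array or 1 mouse gave 7 to 10 higher members. The lower members numbered 10 and 11 without mouse 1's and mouse 3's Ly6C- F4/80high array, 9 and 11 without mouse 1's and mouse 3's Ly6C+ F4/80low array, and 6 and 11 without mouse 1 and mouse 3 as a whole. With only the brighter 50% of genes tested 7 members were lower, 6 of them among the 18.

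**Figure D1:**
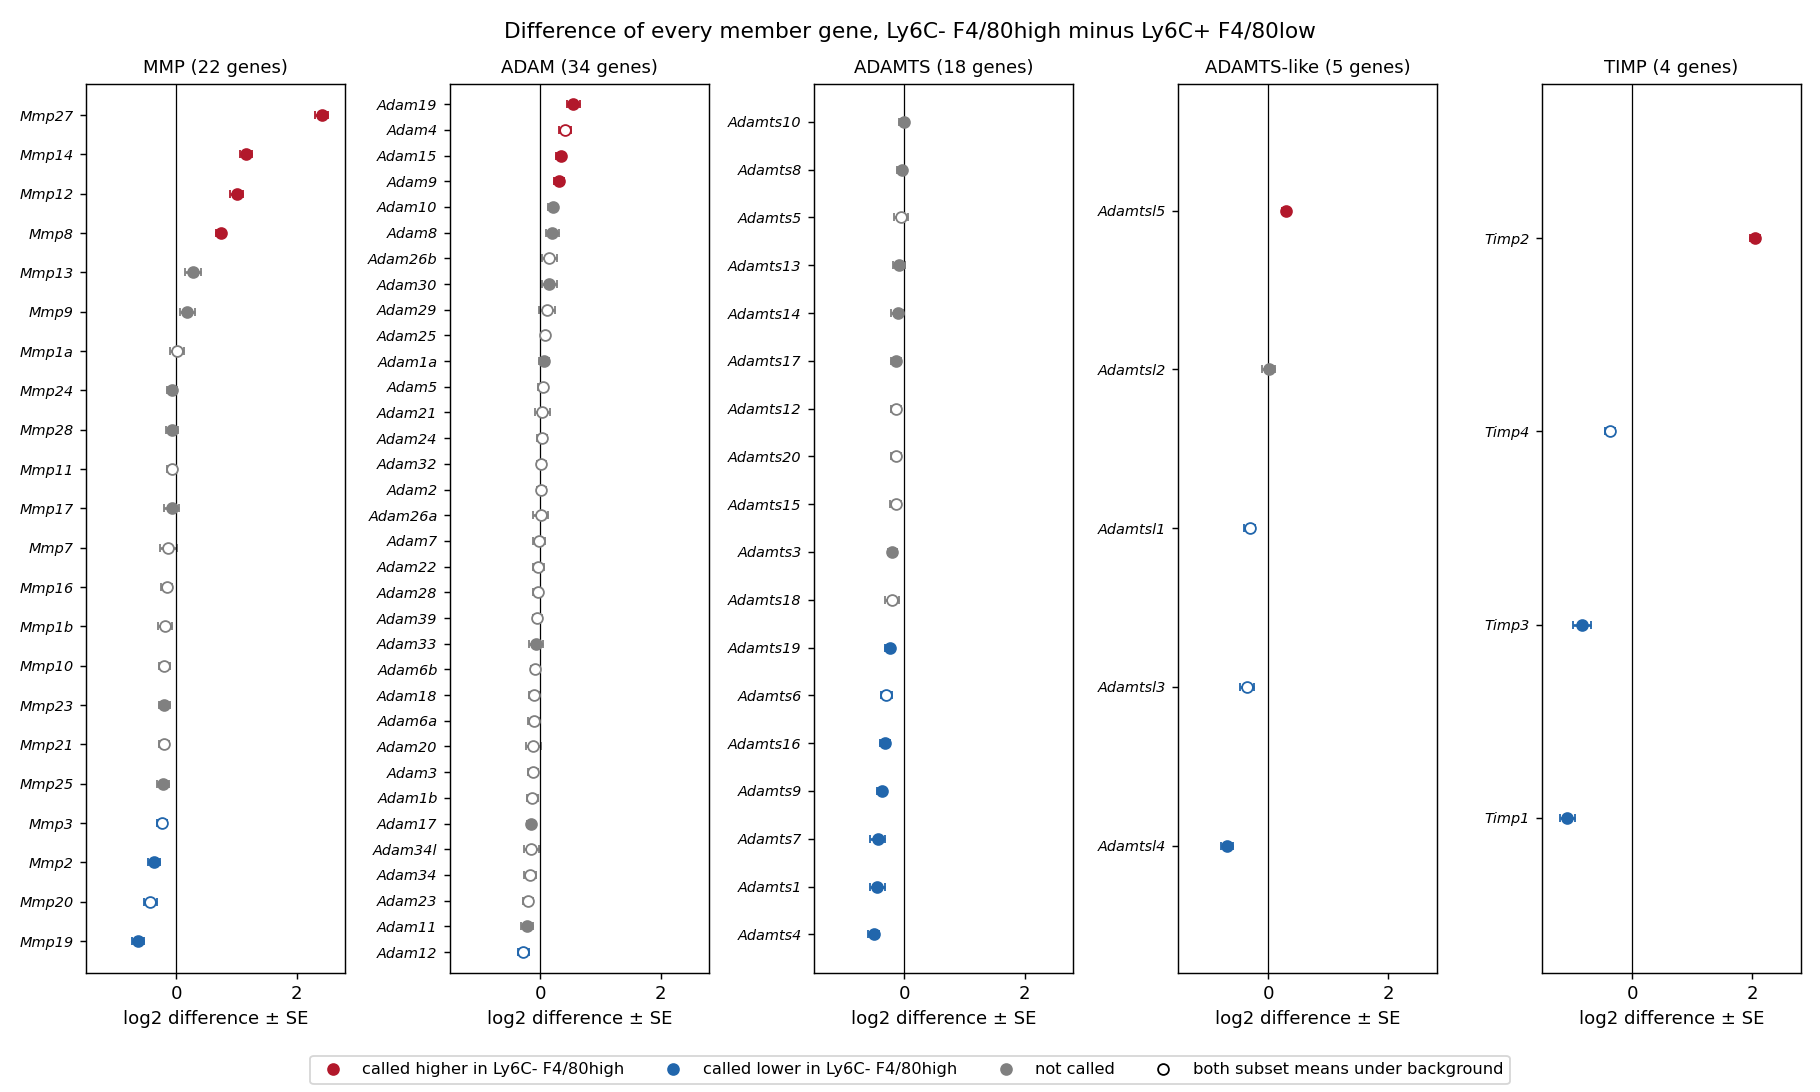
Log2 difference with its standard error (horizontal axis) for each of the 83 genes, in 1 panel per family; red, blue and grey mark genes called higher, called lower and not called, and open symbols mark genes with both subset means under the background, whose measured difference is no size of change. The MMP and TIMP panels hold differences in both directions that reach 2.42 and -1.08, while no ADAMTS gene was called higher.

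Among the MMPs, 4 were higher and 4 lower, while 14 were not called, and the median was -0.11. These are 18.2% higher and 18.2% lower, beside 19.5% and 14.3% over all genes. The 4 higher ones were Mmp27, Mmp14, Mmp12 and Mmp8, and of the lower ones only Mmp19 and Mmp2 had a subset mean above the background. Mmp27 encodes a stromelysin-type enzyme whose human counterpart is kept inside the cell. It stood at 7.78, 8.06 and 8.14 on the Ly6C- F4/80high arrays of mice 1, 2 and 3, against 5.58, 5.43 and 5.71 on the Ly6C+ F4/80low arrays. The groups lay far apart, and the lower one sat at the background, with 2 of its 3 arrays just above it. The difference was 2.42 (SE 0.11, adjusted p = 4.47e-07), or 5.35-fold, the largest of the 83.

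Mmp14 encodes the membrane-bound MT1-MMP, a collagenase of the cell surface that activates the precursor of MMP-2. Its level was 10.10, 10.14 and 10.04 in the Ly6C- F4/80high cells, against 8.74, 8.97 and 9.09 in the Ly6C+ F4/80low cells, with no overlap. It was 2.23-fold higher, by 1.16 (SE 0.10, adjusted p = 1.69e-05). Mmp2, the gene of the gelatinase that MMP-14 activates, differed the other way at a low level. It read 5.89, 5.90 and 5.69 in the Ly6C- F4/80high cells and 6.32, 6.02 and 6.27 in the Ly6C+ F4/80low cells, a difference of -0.38 (SE 0.10, adjusted p = 0.0166). The Mmp2 call was lost without mouse 3's Ly6C- F4/80high array, without mouse 1's or mouse 3's Ly6C+ F4/80low array, and without mouse 1 or mouse 3 as a whole. Its adjusted p was highest, at 0.168, without mouse 3.

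Mmp12, the macrophage elastase, read 8.67, 8.73 and 8.48 in the Ly6C- F4/80high cells, against 7.70, 7.42 and 7.76 in the Ly6C+ F4/80low cells. All 3 arrays of the first subset exceeded all 3 of the second, and the difference of 1.00 (SE 0.11, adjusted p = 7.41e-05) was 2.00-fold. Mmp8, a collagenase first known from neutrophil granules, read 9.70, 9.76 and 9.82 in the Ly6C- F4/80high cells, against 9.13, 8.99 and 8.97 in the Ly6C+ F4/80low cells. The subsets again did not overlap, with a difference of 0.73 (SE 0.08, adjusted p = 7.93e-05). Neutrophil markers were read beside it. Of 12 measured 0 were called higher and 3 lower, beside 19.5% and 14.3% of all genes. On all arrays 7 lay under the background, among them Ly6g, Elane, Mpo and Ltf. The lower ones were S100a9, Ly6g and Cxcr2, and Ly6g and Cxcr2 lay under the background throughout. S100a9 had no Ly6C- F4/80high array above the background and was at least 1.27-fold lower (adjusted p = 0.000681). S100a8, above the background on every array, differed by 0.30 and was not called (adjusted p = 0.0916). The summed linear signal of the 12 was 1040 to 1112 per Ly6C- F4/80high array and 1106 to 1127 per Ly6C+ F4/80low array. Csf3r was the brightest of them, with means of 9.27 in the Ly6C- F4/80high cells and 9.30 in the Ly6C+ F4/80low cells. The part of neutrophils in the Mmp8 difference was not tested.

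Mmp19, a secreted enzyme with basement membrane substrates, was the MMP with the largest difference toward the Ly6C+ F4/80low cells. It read 10.11, 10.31 and 10.23 in the Ly6C- F4/80high cells and 10.72, 10.78 and 11.07 in the Ly6C+ F4/80low cells, a difference of -0.64 (SE 0.11, adjusted p = 0.00115). Both groups were bright and separate. Mmp9, the gelatinase of leukocytes, overlapped between the subsets, with 7.17, 6.84 and 7.02 in the Ly6C- F4/80high cells against 6.75, 6.63 and 7.10 in the Ly6C+ F4/80low cells, and was not called at 0.18 (95% interval -0.11 to 0.47, adjusted p = 0.294). Mmp13, collagenase 3, also overlapped, at 7.93, 7.55 and 7.48 in the Ly6C- F4/80high cells and 7.53, 7.19 and 7.40 in the Ly6C+ F4/80low cells, and was not called at 0.28 (95% interval -0.01 to 0.57, adjusted p = 0.123). Mmp20, of tooth enamel, and Mmp3, stromelysin 1, passed the test as lower (adjusted p = 0.0149 and 0.0454), but all 6 of their arrays lay under the background, and neither call held after quantile normalization or cyclic loess.

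**Figure D2:**
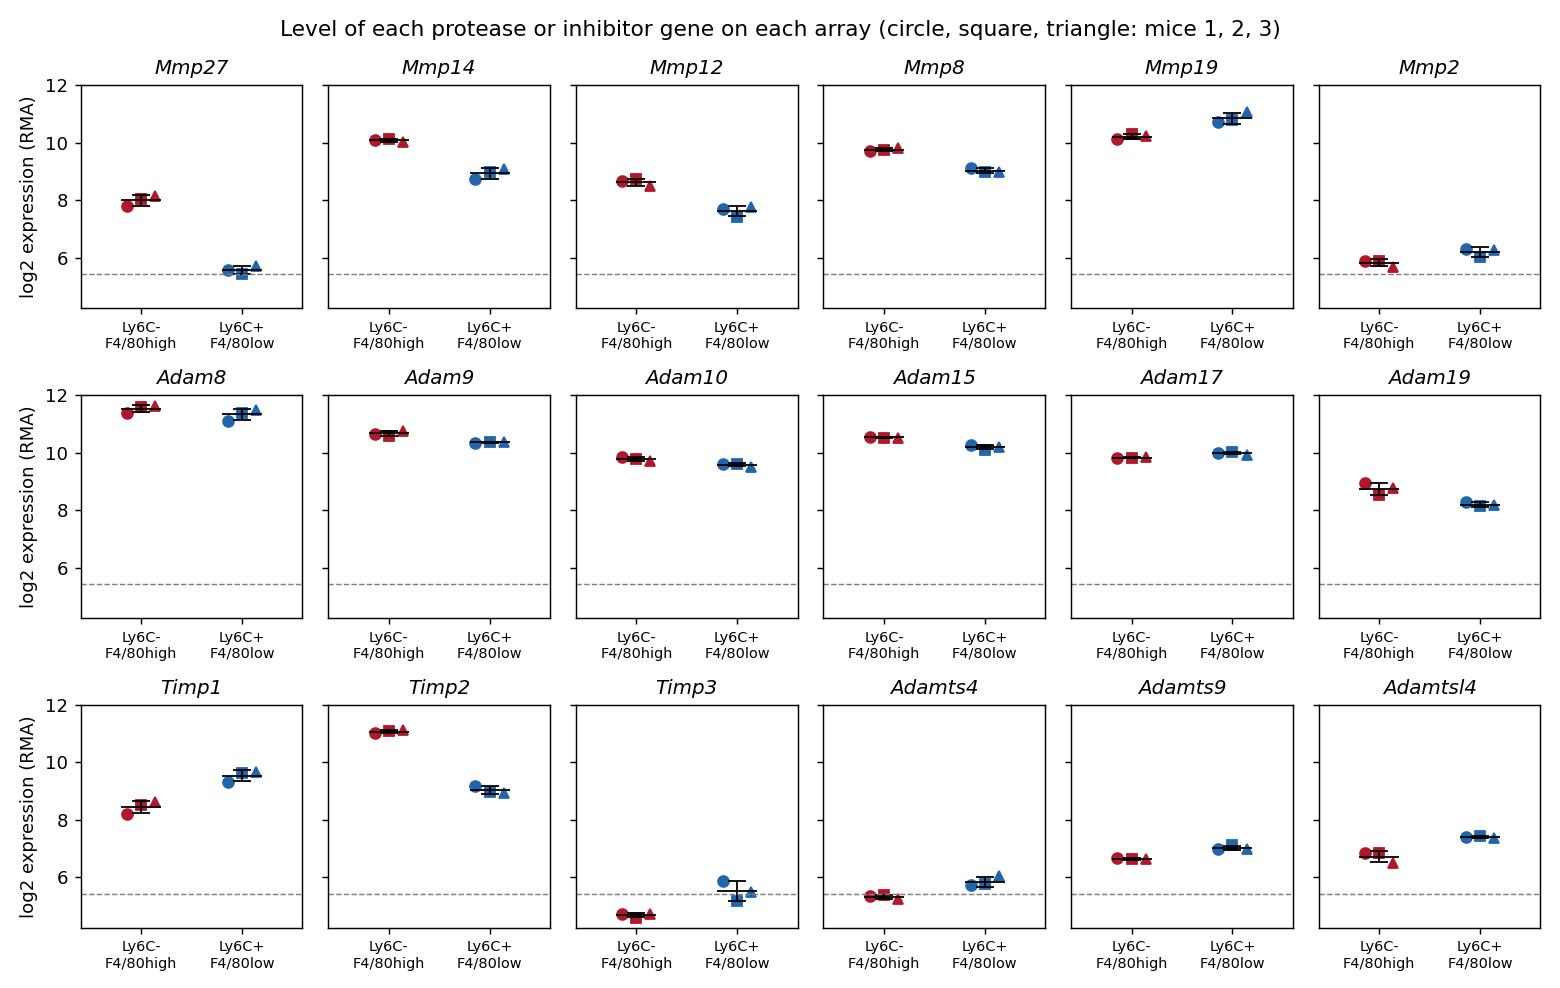
Log2 expression (vertical axis) of 18 protease and inhibitor genes on each array, Ly6C- F4/80high in red and Ly6C+ F4/80low in blue; circles, squares and triangles mark mice 1, 2 and 3, black bars the mean and SD, and the dashed line the background of 5.44. The subsets separate most for Mmp27 and Timp2, and overlap for Adam8.

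Of the MMP genes, 10 lie next to each other on chromosome 9, with no other protein-coding gene between them in the RefSeq gene table, in the order Mmp13, Mmp12, Mmp1b, Mmp3, Mmp1a, Mmp10, Mmp8, Mmp27, Mmp20 and Mmp7. Signal above the background appeared for 4 of them, Mmp13 and Mmp12 at 1 end and Mmp8 and Mmp27 toward the other. Of these 4 the last 3 named were called higher in the Ly6C- F4/80high cells. The other 6 lay under the background on all 6 arrays. Mmp27 and Mmp8, the neighbours, differed by 2.42 and 0.73, while Mmp20 on the other side of Mmp27 averaged 4.54 ± 0.20 in the Ly6C- F4/80high cells and 4.98 ± 0.14 in the Ly6C+ F4/80low cells (SD, n = 3 each). Mmp1a and Mmp1b are close copies, so a probe could read either.

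**Figure D3:**
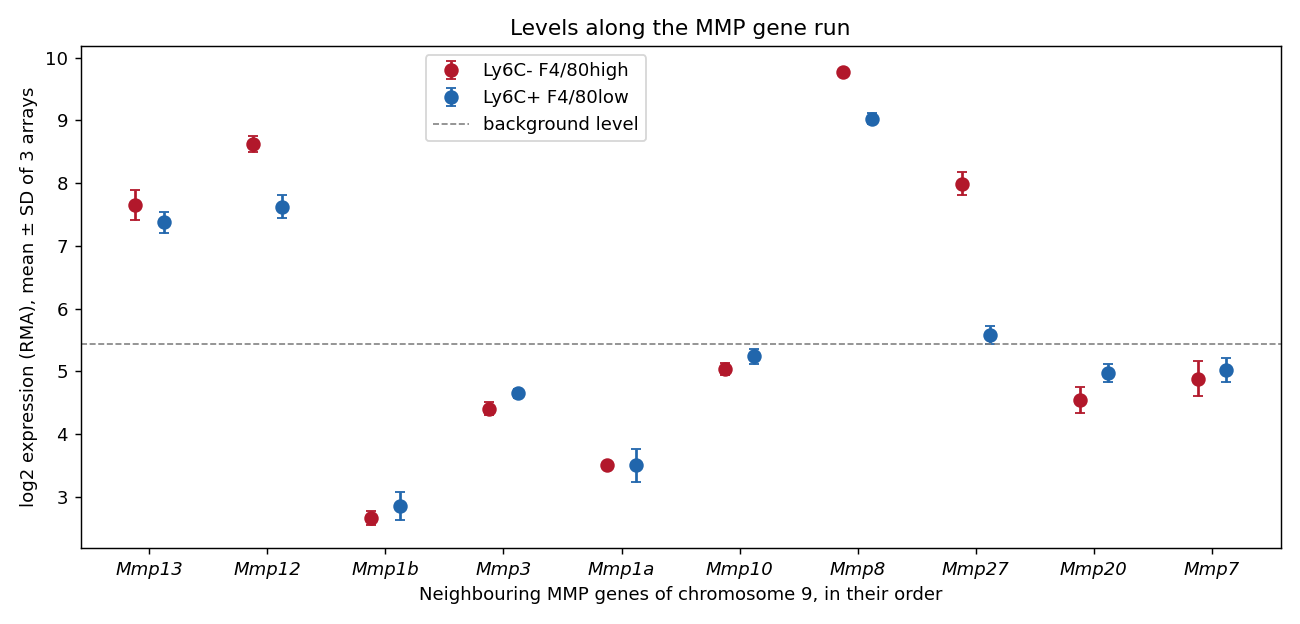
Mean log2 expression with SD of 3 arrays (vertical axis) for the 10 neighbouring MMP genes of chromosome 9 in their order (horizontal axis, not to distance), Ly6C- F4/80high in red left of Ly6C+ F4/80low in blue; the dashed line is the background of 5.44. Mmp13, Mmp12, Mmp8 and Mmp27 stand above the line and the 6 others under it.

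The promoter windows of genes with the larger differences, and of Mmp13 as a bright neighbour that was not called, are shown to compare what stands around each start. The sequences are those of RefSeq on GRCm38.p6 (250 bases before to 50 after the annotated start, on the gene's strand), and 52 of the 83 genes had a window there. Capitals mark matches on either strand to the AP-1 motif TGANTCA, the TATA box TATAAA and the GC box GGGCGG, none of which overlapped. For Mmp12 the second of 2 annotated starts is shown, chosen because the first window held none of these motifs.
Mmp27 promoter, chr9:7571146-7571445, plus strand: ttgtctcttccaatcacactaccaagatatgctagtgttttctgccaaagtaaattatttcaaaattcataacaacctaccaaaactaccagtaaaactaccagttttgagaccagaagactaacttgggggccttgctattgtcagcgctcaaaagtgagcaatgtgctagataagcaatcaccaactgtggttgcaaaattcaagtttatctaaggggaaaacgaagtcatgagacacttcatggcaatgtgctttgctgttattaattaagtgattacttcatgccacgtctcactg
Mmp8 promoter, chr9:7558179-7558478, plus strand: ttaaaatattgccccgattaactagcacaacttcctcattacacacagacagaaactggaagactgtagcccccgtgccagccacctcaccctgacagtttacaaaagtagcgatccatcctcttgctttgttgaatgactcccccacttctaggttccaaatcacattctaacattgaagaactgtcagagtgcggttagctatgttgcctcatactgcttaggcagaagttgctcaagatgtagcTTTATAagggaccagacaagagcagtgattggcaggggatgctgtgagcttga
Mmp12 promoter, chr9:7347124-7347423, plus strand: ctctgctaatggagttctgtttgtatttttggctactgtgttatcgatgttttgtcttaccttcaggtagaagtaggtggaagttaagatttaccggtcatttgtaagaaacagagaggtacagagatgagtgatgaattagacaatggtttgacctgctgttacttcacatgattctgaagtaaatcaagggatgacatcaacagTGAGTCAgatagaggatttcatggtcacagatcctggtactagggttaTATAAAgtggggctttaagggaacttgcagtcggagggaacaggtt
Mmp13 promoter, chr9:7272264-7272563, plus strand: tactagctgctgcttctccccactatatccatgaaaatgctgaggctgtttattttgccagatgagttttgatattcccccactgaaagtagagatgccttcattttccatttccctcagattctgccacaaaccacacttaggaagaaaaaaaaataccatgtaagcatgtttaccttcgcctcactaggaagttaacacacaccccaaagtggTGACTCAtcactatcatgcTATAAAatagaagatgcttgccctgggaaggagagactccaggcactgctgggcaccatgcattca
Mmp14 promoter, chr14:54431348-54431647, plus strand: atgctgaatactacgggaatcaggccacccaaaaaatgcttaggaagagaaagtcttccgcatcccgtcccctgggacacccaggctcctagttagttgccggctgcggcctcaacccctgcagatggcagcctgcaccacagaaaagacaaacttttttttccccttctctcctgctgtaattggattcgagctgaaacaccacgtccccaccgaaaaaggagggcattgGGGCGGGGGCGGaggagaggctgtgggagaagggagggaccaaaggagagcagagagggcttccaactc
Timp2 promoter, chr11:118355362-118355661, minus strand: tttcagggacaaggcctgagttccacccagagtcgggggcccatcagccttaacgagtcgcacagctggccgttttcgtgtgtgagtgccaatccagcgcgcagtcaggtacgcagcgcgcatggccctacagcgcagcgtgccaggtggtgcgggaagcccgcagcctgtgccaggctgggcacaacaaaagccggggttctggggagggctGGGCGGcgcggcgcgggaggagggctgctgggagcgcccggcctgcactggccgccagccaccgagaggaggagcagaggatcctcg
Timp1 promoter, chrX:20869916-20870215, plus strand: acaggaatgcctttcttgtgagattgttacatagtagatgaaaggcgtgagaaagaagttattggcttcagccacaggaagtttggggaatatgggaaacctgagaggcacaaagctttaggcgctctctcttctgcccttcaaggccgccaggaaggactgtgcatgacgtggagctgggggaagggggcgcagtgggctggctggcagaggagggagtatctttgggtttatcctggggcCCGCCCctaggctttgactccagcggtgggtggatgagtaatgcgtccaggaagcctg
The AP-1 letters stood in 7.81% of all 32851 windows, the TATA letters in 13.6% and the GC box letters in 35.7%. Of the 12 windows of the 10 MMP genes of chromosome 9, 8 (66.7%) held AP-1 letters, 9 (75%) TATA letters and 0 GC box letters. Counted by gene, with any start of a gene, these were 8, 9 and 0 of the 10. The 2 genes without AP-1 letters were Mmp8 and Mmp27, which were both called higher, and Mmp27 had none of the 3 motifs. The Mmp13 window and the chosen Mmp12 window both had AP-1 and TATA letters close to the start, and Mmp12 was called where Mmp13 was not. The TATA letters began 4 bases after the annotated start for Mmp12 and at -16 for Mmp13. Mmp14, Timp2 and Timp1 had GC box letters only, and their differences were in both directions. These matches describe letters and show no binding.

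All 4 TIMP genes were called, 1 higher and 3 lower, while 19.5% of all genes were higher and 14.3% lower. Timp2, the inhibitor that also bridges MMP-14 to the MMP-2 precursor, read 11.02, 11.09 and 11.11 in the Ly6C- F4/80high cells, against 9.19, 8.98 and 8.94 in the Ly6C+ F4/80low cells. The arrays of each subset lay within a narrow range, and the difference was 2.04 (SE 0.09, adjusted p = 3.02e-07), or 4.11-fold higher. Timp1, which inhibits MMP-9 and most secreted MMPs but MMP-14 poorly, went the other way. It read 8.20, 8.51 and 8.64 in the Ly6C- F4/80high cells and 9.32, 9.63 and 9.65 in the Ly6C+ F4/80low cells, with no overlap, a difference of -1.08 (SE 0.13, adjusted p = 0.000132) that made it 2.12-fold lower.

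Timp3, a matrix-bound inhibitor that also blocks ADAM17, was not above the background in the Ly6C- F4/80high cells. It read 4.73, 4.60 and 4.72 there and 5.88, 5.17 and 5.49 in the Ly6C+ F4/80low cells, where 2 of 3 arrays passed the background. It was at least 1.06-fold lower (measured means 4.68 ± 0.07 and 5.52 ± 0.36, SD, n = 3 each, adjusted p = 0.00198). Timp4 read 3.74, 3.82 and 3.84 in the Ly6C- F4/80high cells and 4.30, 4.10 and 4.11 in the Ly6C+ F4/80low cells, all under the background. It passed the test as lower (adjusted p = 0.00696) and lost its call without mouse 1 (adjusted p = 0.0751). For Timp1 and Timp2 the calls held in all 20 alternative settings, with differences of -1.21 to -0.96 and 1.96 to 2.14.

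Among the ADAMs, 4 were higher and 1 lower, while 29 were not called. These are 11.8% higher and 2.94% lower, beside 19.5% and 14.3% over all genes. The family's median was -0.01, which turned to 0.07 after quantile normalization, 0.08 after cyclic loess and 0.01 with a common median. Of the 34 genes 22 lay under the background on all arrays, most of them genes of the testis. Only 10 had a subset mean above it, and of these Adam19, Adam15 and Adam9 were higher, 0 were lower and 7 were not called. Adam19, meltrin beta, which cleaves neuregulins, read 8.94, 8.51 and 8.76 in the Ly6C- F4/80high cells, against 8.28, 8.13 and 8.17 in the Ly6C+ F4/80low cells. The groups did not overlap, and the difference was 0.55 (SE 0.11, adjusted p = 0.00366). Adam15, an ADAM with an integrin-binding disintegrin domain, read 10.53, 10.52 and 10.52 in the Ly6C- F4/80high cells and 10.25, 10.10 and 10.21 in the Ly6C+ F4/80low cells, a difference of 0.34 (SE 0.07, adjusted p = 0.00628). Adam9, a widely expressed sheddase, read 10.66, 10.58 and 10.76 in the Ly6C- F4/80high cells and 10.33, 10.36 and 10.38 in the Ly6C+ F4/80low cells, a difference of 0.31 (SE 0.08, adjusted p = 0.0115). These were small differences between tight groups, and the calls were lost without mouse 3 (Adam15, adjusted p = 0.0532, and Adam9, adjusted p = 0.0963) and without mouse 1 (Adam9, adjusted p = 0.0747).

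The main sheddases were not called in either direction. Adam17, which releases TNF, read 9.82, 9.80 and 9.84 in the Ly6C- F4/80high cells and 9.99, 10.003 and 9.93 in the Ly6C+ F4/80low cells. Its 3 Ly6C- F4/80high arrays all lay below the others, yet the difference of -0.16 was not called (95% interval -0.31 to 0.00, adjusted p = 0.118). The call as lower was made with 2 other scalings, quantile normalization (-0.20, adjusted p = 0.0480) and the cyclic loess (-0.24, adjusted p = 0.0229). Adam10, which cuts Notch receptors and many others, read 9.84, 9.78 and 9.72 in the Ly6C- F4/80high cells and 9.59, 9.62 and 9.51 in the Ly6C+ F4/80low cells. It was separated the other way by 0.20 (95% interval 0.04 to 0.37, adjusted p = 0.0619), and was called where dim genes were left out (adjusted p = 0.0248 to 0.0404) and with a trended robust prior (adjusted p = 0.0234). Adam8, a leukocyte ADAM, overlapped between the subsets, with 11.38, 11.57 and 11.63 in the Ly6C- F4/80high cells against 11.12, 11.38 and 11.49 in the Ly6C+ F4/80low cells, and its difference was 0.20 (95% interval -0.05 to 0.45, adjusted p = 0.186). Adam12, meltrin alpha, known from regenerating muscle, read 4.99985, 5.06 and 4.94 in the Ly6C- F4/80high cells and 5.47, 5.16 and 5.23 in the Ly6C+ F4/80low cells. Only mouse 1's Ly6C+ F4/80low array passed the background. Adam12 was called lower (adjusted p = 0.0396), and the call was lost in 9 of 18 alternative settings, among them each that left out mouse 1 or mouse 3 or 1 of their arrays. Adam4, called higher (adjusted p = 0.0127), lay under the background on all 6 arrays, and its call was lost without mouse 1's Ly6C- F4/80high array, without mouse 1 and without mouse 2.

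The ADAMTS genes were lower or not called. Of 18, 7 were lower and 11 not called, 0 were higher, and the median was -0.17. All 18 differences were negative (16 after quantile normalization or cyclic loess, 17 with a common median), in a family that lies mostly near the background, with 9 genes under it on average, 8 between it and 7, and 1 over 7. In the range from the background to 7, 3 of the 8 ADAMTS genes were lower, and of all 5495 genes in that range 15.6% were lower and 20.4% higher, with a median difference of -0.07. Adamts4, an aggrecan- and versican-cutting enzyme, was not above the background in the Ly6C- F4/80high cells, with 5.35, 5.39 and 5.26, against 5.74, 5.75 and 6.04 in the Ly6C+ F4/80low cells. It was at least 1.33-fold lower (adjusted p = 0.00254). Adamts9, which also cuts versican, read 6.69, 6.65 and 6.62 in the Ly6C- F4/80high cells and 6.98, 7.12 and 6.99 in the Ly6C+ F4/80low cells, a difference of -0.38 (SE 0.08, adjusted p = 0.0038). Its 6 probe sets all pointed the same way, from -0.80 to -0.23, and 4 of them were called when every probe set was tested on its own.

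Adamts7, which cuts the cartilage protein COMP, read 5.91, 6.39 and 6.38 in the Ly6C- F4/80high cells, against 6.74, 6.68 and 6.59 in the Ly6C+ F4/80low cells, a difference of -0.44 (SE 0.13, adjusted p = 0.0213). The low value of mouse 1 stood out, and without mouse 1 the difference was -0.25 (adjusted p = 0.106). The call held without mouse 1's Ly6C- F4/80high array alone, but was lost without mouse 1's or mouse 2's Ly6C+ F4/80low array. Adamts1, another versican-cutting enzyme, read 4.83, 5.18 and 4.99 in the Ly6C- F4/80high cells, all under the background, and 5.63, 5.22 and 5.50 in the Ly6C+ F4/80low cells. It was at least 1.01-fold lower (adjusted p = 0.0173), and its call was lost in 6 of 19 settings, with an adjusted p of 0.169 without mouse 1. Adamts16 read 5.10, 5.30 and 5.07 in the Ly6C- F4/80high cells, all under the background, and 5.52, 5.41 and 5.50 in the Ly6C+ F4/80low cells, and was at least 1.03-fold lower (adjusted p = 0.0171). Adamts19 read 5.36, 5.37 and 5.20 in the Ly6C- F4/80high cells, also under the background, and 5.58, 5.58 and 5.49 in the Ly6C+ F4/80low cells, and was at least 1.08-fold lower (adjusted p = 0.0373). These calls were lost in 7 and 11 of 19 settings. Adamts6 was called lower (adjusted p = 0.0202) with all arrays under the background, a call lost in 6 of 18 settings.

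Of the 5 ADAMTS-like genes 1 was higher, 3 were lower and 1 was not called, while 19.5% of all genes were higher and 14.3% lower. Adamtsl4, whose human protein binds fibrillin microfibrils, read 6.84, 6.84 and 6.50 in the Ly6C- F4/80high cells and 7.42, 7.45 and 7.39 in the Ly6C+ F4/80low cells. The subsets were well apart, by -0.70 (SE 0.10, adjusted p = 0.000502). Adamtsl5 was higher, with 6.66, 6.59 and 6.55 in the Ly6C- F4/80high cells against 6.34, 6.29 and 6.28 in the Ly6C+ F4/80low cells, a difference of 0.29 (SE 0.07, adjusted p = 0.0114) that lost its call without any 1 of the 3 mice (adjusted p = 0.0541 to 0.0698). Adamtsl1 read 5.07, 5.13 and 5.04 in the Ly6C- F4/80high cells and 5.54, 5.30 and 5.34 in the Ly6C+ F4/80low cells, with 1 array above the background. It was called lower (adjusted p = 0.0183), as was Adamtsl3 (adjusted p = 0.0387), whose arrays all lay under the background. These calls were lost in 8 of 18 settings for Adamtsl1 and 8 of 17 for Adamtsl3. With every probe set tested on its own, neither of Adamtsl1's 2 probe sets was called (limma adjusted p = 0.0505 and 0.938).

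Markers of other cell types were read beside the lower members. Over all genes 14.3% were lower and 19.5% higher, and among those with an overall mean under the background 12.2% and 3.79%. Of 10 fibroblast markers 9 were called lower, 0 higher and 1 in neither direction, and their summed linear signal was 424 to 464 per Ly6C- F4/80high array and 541 to 689 per Ly6C+ F4/80low array. Dcn, the decorin gene, read 4.85, 4.76 and 5.004 in the Ly6C- F4/80high cells and 6.79, 5.70 and 5.55 in the Ly6C+ F4/80low cells, while Lum, Dpt and Postn lay under the background on all arrays. Of 8 endothelial markers 7 were lower and 1 was not called, with sums of 393 to 415 in the Ly6C- F4/80high cells and 633 to 691 in the Ly6C+ F4/80low cells, and Tek lay under the background throughout. Fibroblasts and endothelial cells also express Mmp2, Timp3 and ADAMTS genes, and the part of such cells in the differences of these genes was not tested. Of 7 dendritic cell markers 3 were lower, 1 was higher and 3 were not called, 2 lay under the background on all arrays, and the sums were 472 to 500 in the Ly6C- F4/80high cells and 539 to 594 in the Ly6C+ F4/80low cells. The largest difference was that of Cd209a, with 5.60, 5.50 and 5.70 in the Ly6C- F4/80high cells and 6.84, 6.82 and 6.72 in the Ly6C+ F4/80low cells, or -1.19 (adjusted p = 4.81e-06). The part of such cells in the members' differences was not tested either. Markers were lower for 2 of 8 muscle, 1 of 7 T and NK cell, 1 of 5 mast cell, 1 of 4 eosinophil and 0 of 4 B cell genes, and higher for 1 B cell gene and no other of these.

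Of 25 measured genes that activate, block or assist these enzymes, 3 were higher and 5 lower, 17 passed in neither direction, and the median was -0.08. These are 12% higher and 20% lower, beside 19.5% and 14.3% over all genes. Of the 25, 21 had a subset mean above the background, and of all 12758 such genes 28.9% were higher and 16.2% lower. Furin, the convertase that activates MMP-14 and many ADAMs, averaged 9.96 ± 0.08 in the Ly6C- F4/80high cells and 9.85 ± 0.03 in the Ly6C+ F4/80low cells (SD, n = 3 each), a difference of 0.11 (adjusted p = 0.276). Rhbdf2 (iRhom2), which carries ADAM17 to the cell surface in macrophages, differed by -0.22 (95% interval -0.40 to -0.03, adjusted p = 0.0673). It was called lower in 6 alternative settings, which were the filters on dim genes, the trended robust prior, quantile normalization and cyclic loess. Reck, a membrane-anchored MMP inhibitor, lay under the background in both subsets. Tspan17, a tetraspanin that partners ADAM10, read 8.23, 8.11 and 8.14 in the Ly6C- F4/80high cells, against 7.31, 7.23 and 7.48 in the Ly6C+ F4/80low cells. It was higher by 0.82 (SE 0.09, adjusted p = 6.67e-05). Lrp1, the uptake receptor that clears MMPs and protease-inhibitor complexes, was higher by 0.44 (adjusted p = 0.00118).

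The urokinase system, which makes plasmin and thereby activates MMP precursors, was split. Plau, the urokinase gene, was higher by 0.33 (SE 0.11, adjusted p = 0.0406), a call lost in 9 of 20 settings, among them quantile normalization, cyclic loess and the removal of any 1 mouse. Plaur, its receptor, read 9.63, 9.75 and 9.88 in the Ly6C- F4/80high cells and 10.34, 10.57 and 10.59 in the Ly6C+ F4/80low cells, a difference of -0.74 (SE 0.10, adjusted p = 0.00028). Plat, tissue plasminogen activator, had no Ly6C- F4/80high array above the background and was at least 1.39-fold lower (adjusted p = 7.22e-05).

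Of 26 measured genes whose proteins are shed by ADAMs, 7 were higher and 9 lower, 10 were not called, and the median was -0.13. These are 26.9% higher and 34.6% lower, beside 19.5% and 14.3% over all genes. Of the 26, 24 had a subset mean above the background, and of all 12758 such genes 28.9% were higher and 16.2% lower. Trem2 and Mertk, phagocyte receptors cut by ADAM10 and ADAM17, were higher. Trem2 read 10.84, 11.01 and 11.24 in the Ly6C- F4/80high cells and 9.51, 9.39 and 9.29 in the Ly6C+ F4/80low cells, a difference of 1.63 (SE 0.11, adjusted p = 4.18e-06), and Mertk differed by 1.57 (adjusted p = 1.08e-06). Il1r2, the decoy receptor for interleukin-1, had the largest opposite difference, with 5.93, 5.97 and 5.77 in the Ly6C- F4/80high cells and 8.07, 8.31 and 8.28 in the Ly6C+ F4/80low cells, or -2.33 (SE 0.09, adjusted p = 2.09e-07). Axl, a receptor kinase related to Mertk, differed by -0.98 (adjusted p = 0.000206). Tnf, the classic substrate of ADAM17, was not called, at -0.01 (95% interval -0.23 to 0.20, adjusted p = 0.929).

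Matrix genes whose products these enzymes cut stood mainly on the lower side. Of 25 measured, 17 were lower and 1 was higher, 7 were not called, the median was -0.30, and 7 of the 25 lay under the background on all arrays. These are 68% lower and 4% higher, beside 14.3% and 19.5% over all genes. Of the 17 lower genes 4 had both subset means under the background, where genes as a whole stood slightly lower. After cyclic loess 13 were lower. The list shares Col1a1, Col1a2, Col3a1, Dcn and Lum with the fibroblast markers above. Vcan, versican, the substrate of ADAMTS-1, ADAMTS-4 and ADAMTS-9, read 7.04, 7.20 and 7.12 in the Ly6C- F4/80high cells, against 11.45, 11.55 and 11.49 in the Ly6C+ F4/80low cells, a difference of -4.37 (SE 0.08, adjusted p = 2.02e-09). Lamc1, a laminin chain of the basement membrane, was the higher gene, with 7.98, 8.17 and 8.03 in the Ly6C- F4/80high cells and 6.94, 7.11 and 7.003 in the Ly6C+ F4/80low cells, a difference of 1.04 (SE 0.08, adjusted p = 1.32e-05).

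**Figure D4:**
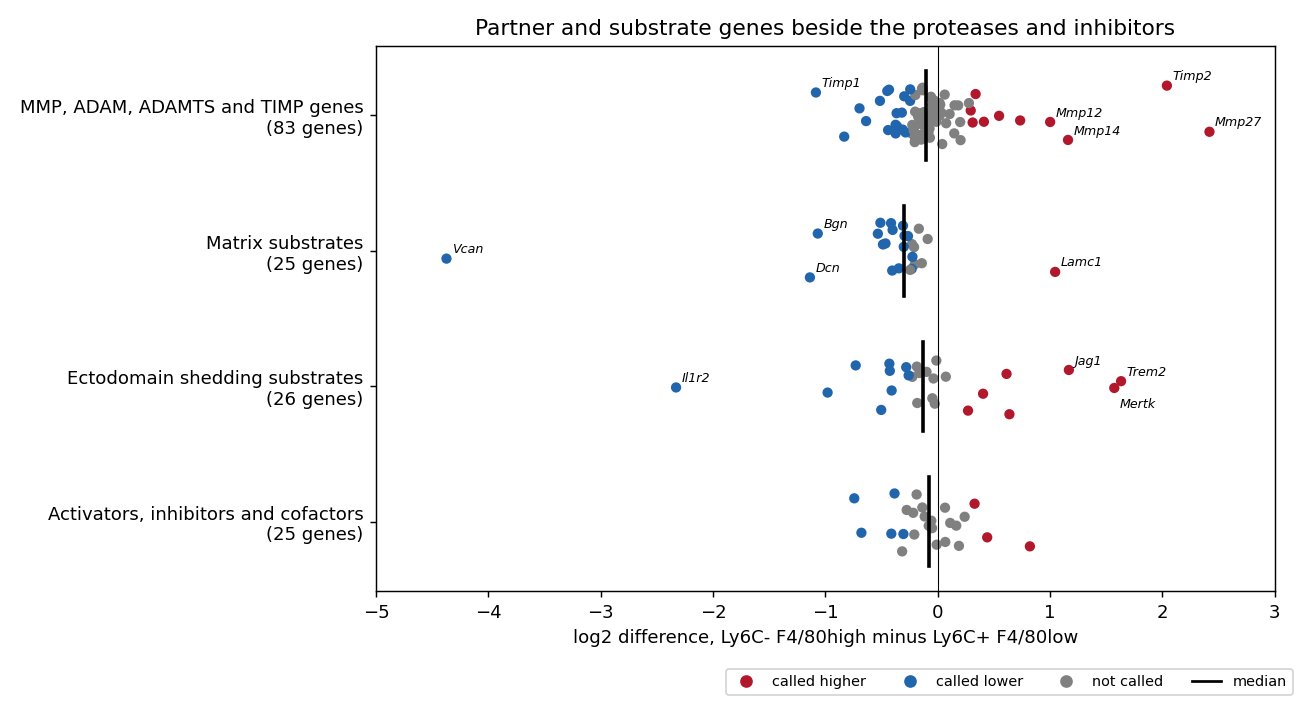
Log2 difference (horizontal axis) of each gene in the 3 partner lists and of the 83 proteases and inhibitors; red, blue and grey mark genes called higher, called lower and not called, black bars the list medians, and names stand at genes of 2-fold or more. The matrix list lies mostly left of 0, with Vcan at -4.37 and Lamc1 at 1.04.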

How the data were processed

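RNA of 2 sorted macrophage subsets from 3 mice was hybridised to 6 Affymetrix arrays. The deposited values are log2 expression values that the authors made with RMA, per the submitters' processing notes; the sources used here give no version. They were used as deposited. The 35556 probe sets were named from the platform annotation (21789 with 1 symbol, 1621 with several, 12146 with none), and the probe set of highest mean stood for each of 19938 genes. All 83 members were found in RefSeq by gene ID. The arrays give no counts, so the number of arrays limits the precision.

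limma 3.58.1 (R 4.3.3; lmFit, eBayes) compared the subsets without a block, with Benjamini-Hochberg adjustment and a threshold of 0.05; it was tested on simulated data. The replicate numbers mark mice that gave both subsets; deviations of the paired arrays correlated at 0.03, -0.08 and 0.09. P-values cover the spread between these mice. Alternatives were a mouse block or random effect, 3 scalings, filters on dim genes, averaging all probe sets of a gene, every probe set on its own, other limma settings, and leaving out each array or mouse.

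Array values are given for members called with an array above the background (with a difference or bound where the level allows), for 18 preset members whatever their result, and for the largest called partners with 6 preset ones. Members and lists were chosen with earlier results of these data known.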

Additional observations from a re-analysis of the deposited data

How the results depend on the processing

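With 3 arrays per subset and many members near the background, small differences are the least certain. Over 20 alternative settings 12 of the 28 called members kept their call and direction in every setting that tested them, namely Mmp27, Timp2, Mmp14, Timp1, Mmp12, Timp3, Mmp8, Adamtsl4, Mmp19, Adam19, Adamts4 and Adamts9. So did 11 of the 12 called partner genes named, all but Plau. Of 634 values of 33 members, 538 kept their side of the threshold, 90 lost a call and 6 gained one. Fitting the mouse as a replicate block gave 10 higher and 16 lower members and 3654 higher and 2510 lower genes, and of the members with an array above the background it ended only the call of Adam12 (adjusted p = 0.0561) and, under the background, that of Mmp3 (adjusted p = 0.0834). Without the 50% of genes of lowest mean 26 members were tested and 7 were lower, 6 of them among the 18. Leaving out an array or a mouse gave 6 to 18 lower and 7 to 10 higher members, 16 to 33 lower (16 without mouse 1, 19 without mouse 3) and 9 to 11 higher partner genes, and 1321 to 3290 lower and 2677 to 3597 higher genes. Quantile normalization gave 10 higher and 14 lower members, cyclic loess 10 and 13, and a common median 10 and 16. Of the 18 lower members 11, 10 and 16 were still called in these scalings, in that order. Among the genes named, the measured sign turned for Adamtsl1's second probe set (0.0168), Reck after quantile normalization (0.0511) and cyclic loess (0.0747), and Tnf with a common median (0.00993), array weights (0.00258) and when an array or mouse was left out (-0.0987 to 0.0447). Over whole families, negative differences numbered 17 of 34 ADAM, 18 of 18 ADAMTS and 15 of 22 MMP genes as reported, and 11, 16 and 13 after quantile normalization or cyclic loess. Testing every probe set on its own, a fit over more features, also ended the calls of Adamts7, Adamts1, Mmp2, Adam12, Adamts19, Adamtsl1, Adamts6, Adamtsl3, Mmp20 and Mmp3. The causes of the lost calls were not tested.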

Other observations

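Among the shed membrane proteins, 5 genes beside Trem2 and Mertk were called higher in the Ly6C- F4/80high cells, and were picked out with their values in view. Jag1, a Notch ligand cut by ADAM17, averaged 9.20 ± 0.13 in the Ly6C- F4/80high cells and 8.03 ± 0.19 in the Ly6C+ F4/80low cells (SD, n = 3 each), a difference of 1.17 (limma adjusted p = 3.35e-05). Cxcl16, a membrane-bound chemokine released by ADAM10, averaged 9.43 ± 0.08 and 8.82 ± 0.16 in the Ly6C- F4/80high and Ly6C+ F4/80low cells (SD, n = 3 each), a difference of 0.61 (limma adjusted p = 0.000806). Cd163, the haemoglobin scavenger receptor, was above the background on all 3 Ly6C- F4/80high arrays and on 0 of the Ly6C+ F4/80low arrays, and was at least 1.34-fold higher (limma adjusted p = 0.00636). App, the amyloid precursor gene, differed by 0.40 (limma adjusted p = 0.00289) and Hbegf, a growth factor gene, by 0.27 (limma adjusted p = 0.0448).

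Some members were read by more than 1 probe set. The 16 probe sets of Adamts3 and the 5 of Adamts17 all had negative measured differences, with 1 of each called lower when every probe set was tested on its own; 5 and 3 of them had an array above the background. A probe set shared by the Adam26 and Adam34 genes (limma adjusted p = 0.337) and 1 shared by Adam4 and Gm4787 (limma adjusted p = 0.505) were not called, and both lay under the background on all arrays. Adam4's own probe set was called higher, and signal from near copies of these ADAM genes cannot be told apart.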
